A study of Mus musculus with 4 samples.

Results

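B cells of the whole mouse lung were taken from the single-cell matrix by their transcripts. A cell was counted as a B cell when Cd79a, Cd79b and Ms4a1 together had at least 4 UMIs (UMIs are barcodes that let each captured RNA molecule be counted once), at least 2 of these 3 genes were detected, and Cd3e, Cd3d, Cdh5 and Csf1r had 0 UMIs. In total, 754 of 9363 cells (8.05%) met this rule. The cells were thus chosen by their measured UMIs of these 7 genes, whose values are given as a description only. Cd79a and Cd79b encode the signalling chains of the B cell receptor, Ms4a1 encodes CD20, and the genes required at 0 mark T cells (Cd3e, Cd3d), endothelial cells (Cdh5) and monocytes or macrophages (Csf1r).

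B cells carry an immunoglobulin on their surface as antigen receptor, built from a heavy chain and a kappa or lambda light chain. Mature follicular B cells recirculate through blood and tissues and express IgM together with IgD, whereas B-1 and marginal zone B cells hold high IgM with little IgD. Antigen-driven cells can switch the heavy chain class to IgG or IgA, and the end stage is the antibody-secreting plasma cell, which gives up much of the B cell programme and makes immunoglobulin and J chain, the small protein that joins IgA or IgM into polymers. In the lung, B cells sit mostly in the vasculature, in the interstitium and along the airways.

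The libraries came from whole lungs of 4 mice on a C57/BL6 background. The 2 libraries labelled WT were from mice with the genotype ERG fl/fl, that is, with loxP-flanked Erg alleles and no Cre. The 2 libraries labelled ERG CKO were from CDH5-CreER(T):ERG fl/fl mice, in which a tamoxifen-inducible Cre is driven by the promoter of the endothelial cadherin gene Cdh5, so the deletion is aimed at endothelium and not at B cells. Tamoxifen was given to all mice, controls included, at 0.5 mg a day for 5 days, and the lungs were taken 90 days after it. The age of the mice of these libraries is not given in the sources used here, and each library is 1 mouse. For other experiments on WT and ERG CKO animals, the study names young mice of 2 months. Females and males were used, and the sex of each mouse is not in the labels. Xist, transcribed from the inactive X chromosome, had 867 UMIs in the B cells of the first WT library, 2076 UMIs in those of the first ERG CKO library and 0 UMIs in the other two. The Y-linked gene Ddx3y had 0 UMIs in the first library of each group, 77 UMIs in the second WT library and 96 UMIs in the second ERG CKO library. Each group thus held 1 library with Xist and 1 with Ddx3y. WT and ERG CKO below name the libraries by their labels. In endothelial cells, the level of Erg in CPM (UMIs scaled to a total of 1000000) was 92.2 and 89.0 in cells of WT and 103 and 83.1 in cells of ERG CKO (replicates 1 and 2 in this order, as throughout), so the groups overlapped. The matrix gives 1 value per gene and cannot separate a removed part of the transcript, so these values do not check the deletion, and every direction below rests on the labels. In B cells, Erg had 0 and 0 UMIs in WT and 2 and 1 UMIs in ERG CKO.

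The matrix had 2264 and 2150 cells for WT and 3097 and 1852 for ERG CKO, from 11263911 to 18646776 UMIs per library. B cells had median depths of 3977 and 4519 UMIs in WT and of 5276 and 4381.5 UMIs in ERG CKO, and summed to 618659, 897110, 1474438 and 877606 UMIs. The deepest library for B cells was thus ERG CKO replicate 1. Cells over 10% mitochondrial UMIs were 18 of 153 and 12 of 190 B cells in WT and 47 of 231 and 22 of 180 in ERG CKO. Scrublet called 66 doublets among all cells (0.705%) and 0 among B cells. Between libraries, 7 barcodes were shared, and 0 were B cells in both libraries. Of the 824 cells that met the UMI part of the rule, 70 were left out because they held RNA of another cell type (Cdh5 in 44, Cd3e or Cd3d in 16, Csf1r in 13), with a median of 6678 UMIs.

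Immunoglobulin segments are shown first, since the largest differences between the libraries were in immunoglobulin transcripts. The sequences are coding DNA of the reference transcripts (GENCODE vM21, build GRCm38, the assembly also named mm10), each from the minus strand and read 5′ to 3′. The first 3 are heavy chain variable (V) gene segments, coding exons on chromosome 12, that had the most heavy chain V UMIs in 3 IgA antibody-secreting cells described below. Capitals mark the end of the segment from the last cysteine codon onward, where the segment is joined to a D segment. Ighv1-20 lies at chr12:114723772-114724071, Ighv13-2 at chr12:114357759-114358058 and Ighv5-9-1 at chr12:113736111-113736410.
Ighv1-20: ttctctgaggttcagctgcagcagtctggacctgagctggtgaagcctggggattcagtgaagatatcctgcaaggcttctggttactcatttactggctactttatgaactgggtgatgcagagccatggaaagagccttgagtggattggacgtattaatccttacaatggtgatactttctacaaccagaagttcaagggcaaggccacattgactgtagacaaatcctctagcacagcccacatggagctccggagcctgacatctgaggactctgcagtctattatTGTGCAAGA
Ighv13-2: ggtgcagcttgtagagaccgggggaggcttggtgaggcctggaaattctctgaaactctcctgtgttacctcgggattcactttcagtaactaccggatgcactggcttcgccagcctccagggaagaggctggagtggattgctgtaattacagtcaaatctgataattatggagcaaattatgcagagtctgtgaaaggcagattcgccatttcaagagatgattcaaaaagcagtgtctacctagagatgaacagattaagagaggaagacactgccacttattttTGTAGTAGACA
Ighv5-9-1: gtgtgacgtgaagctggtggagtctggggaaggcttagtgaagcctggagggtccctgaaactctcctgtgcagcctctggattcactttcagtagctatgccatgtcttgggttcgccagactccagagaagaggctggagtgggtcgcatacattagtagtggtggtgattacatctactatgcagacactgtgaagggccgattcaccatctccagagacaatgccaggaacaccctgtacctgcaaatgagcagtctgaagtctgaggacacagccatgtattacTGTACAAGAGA
The kappa V segments of the latter 2 cells, Igkv8-28 at chr6:70143593-70143892 and Igkv8-30 at chr6:70117061-70117360, belong to 1 family. Capitals mark the 26 of 300 bases at which they differ (91.3% identity).
Igkv8-28: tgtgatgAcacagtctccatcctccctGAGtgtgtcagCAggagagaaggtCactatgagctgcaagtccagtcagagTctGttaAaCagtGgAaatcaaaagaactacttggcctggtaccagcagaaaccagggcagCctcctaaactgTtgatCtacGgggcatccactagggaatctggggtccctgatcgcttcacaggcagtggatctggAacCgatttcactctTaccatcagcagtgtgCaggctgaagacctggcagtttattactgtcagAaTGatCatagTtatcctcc
Igkv8-30: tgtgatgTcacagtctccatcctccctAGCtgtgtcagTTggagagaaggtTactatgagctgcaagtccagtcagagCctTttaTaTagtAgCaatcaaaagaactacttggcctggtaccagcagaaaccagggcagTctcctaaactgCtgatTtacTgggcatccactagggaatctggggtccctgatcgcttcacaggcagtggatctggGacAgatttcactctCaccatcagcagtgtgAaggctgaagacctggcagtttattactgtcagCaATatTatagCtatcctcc
The lambda constant segments Iglc1 (chr16:19061772-19062071), Iglc2 (chr16:19198554-19198853) and Iglc3 (chr16:19065382-19065681) are shown because light chain classes were counted on them. Capitals mark bases that differ from Iglc2 or fall in a gap of it. Bases past the ends of the aligned stretch are not marked.
Iglc1: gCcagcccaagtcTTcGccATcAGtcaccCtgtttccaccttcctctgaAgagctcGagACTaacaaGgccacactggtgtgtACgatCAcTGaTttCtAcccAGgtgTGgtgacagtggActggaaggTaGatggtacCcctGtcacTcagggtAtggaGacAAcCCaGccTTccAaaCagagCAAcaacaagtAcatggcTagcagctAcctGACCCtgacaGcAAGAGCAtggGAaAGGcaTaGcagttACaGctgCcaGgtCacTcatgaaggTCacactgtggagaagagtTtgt
Iglc2: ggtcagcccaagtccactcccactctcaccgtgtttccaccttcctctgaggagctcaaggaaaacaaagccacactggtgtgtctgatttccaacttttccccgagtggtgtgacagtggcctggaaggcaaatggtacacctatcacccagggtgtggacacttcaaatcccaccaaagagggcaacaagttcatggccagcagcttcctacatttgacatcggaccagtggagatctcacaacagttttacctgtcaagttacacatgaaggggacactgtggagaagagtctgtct
Iglc3: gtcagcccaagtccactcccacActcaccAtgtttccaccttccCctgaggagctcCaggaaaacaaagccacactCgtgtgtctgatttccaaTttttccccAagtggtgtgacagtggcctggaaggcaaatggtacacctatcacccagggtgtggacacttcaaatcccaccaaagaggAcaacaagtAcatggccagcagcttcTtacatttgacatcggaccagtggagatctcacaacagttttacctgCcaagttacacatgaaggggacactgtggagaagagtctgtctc
Iglc2 and Iglc3 were the same at 288 of 299 aligned bases (96.3%), so their UMIs cannot be told apart with confidence, and they were summed where a class was called. Iglc1 differed from Iglc2 at 78 of 297 aligned bases (73.7% identity, with a gap of 3 bases).

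Markers that the rule did not use were checked against the label. Fcmr, the receptor for IgM, was detected in 86.3% and 90.5% of B cells in WT and in 90.04% and 86.1% in ERG CKO. Bank1, a B cell scaffold protein, was detected in 83.0% and 81.6% in WT and in 90.5% and 91.7% in ERG CKO. Ebf1, a transcription factor of the B lineage, was found in 97.9% to 98.7% of B cells of each library, and Ighm, the IgM heavy chain, in 97.8% to 99.3%. Pax5, a further factor of the B lineage, was found in 51.7% to 69.3%. The label B cells therefore held in all 4 libraries. In T cells of the same libraries, at median depths of 5934 to 6431 UMIs, Ighd was found in 0.730% to 2.01% of cells, against 84.0% to 94.2% of B cells. Ighm was the exception among these genes, with a UMI in 43.1% and 38.8% of T cells in WT and in 44.5% and 37.5% in ERG CKO. Its level in T cells was 99.8 to 124 CPM, against 2504 to 2914 CPM in B cells. Igkc, the kappa constant chain, was at 4.49 to 22.8 CPM in T cells.

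Compared with T cells, endothelial cells and monocytes or macrophages, the genes highest in B cells beyond those of the rule were Igkc, Igha, the B cell surface protein Ly6d, Jchain, Fcmr, Iglc2, Iglc1, Ighd, Iglc3 and Bank1. Igha and Jchain stand there through 4 cells of the ERG CKO libraries described below, and were at 14.5 and 0 CPM and at 0 and 0 CPM in WT. Mean CPM over the 4 libraries was 1537 for Ly6d in B cells and 1.499 or lower in each of the other 3 classes. Fcer2a, the low-affinity IgE receptor CD23, was at 240 CPM in B cells and 0.232 CPM or lower in the other classes. Cells near the limit of the rule were few, with 7 cells at a marker sum of 3, 4 cells at 4 and 6 cells at 5 UMIs, against a median sum of 20. Among the 7 cells just outside the limit, 5 held Ighm and 6 held Igkc. Among the 4 just inside, 4 held Ighm and 3 held Igkc.

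Whether the share of B cells differed between the groups was examined next. B cells made up 6.76% of cells (95% Wilson interval 5.80 to 7.87, counting error only) in WT replicate 1 and 8.84% (7.71 to 10.1) in WT replicate 2. In ERG CKO, they made up 7.46% (6.59 to 8.44) in replicate 1 and 9.72% (8.45 to 11.2) in replicate 2. The 2 groups overlapped, and replicates of 1 group lay further apart than the group means, which differed by 0.791 percentage points (exact permutation test, two-sided, p = 0.667; with 2 against 2 mice the smallest possible p is 0.333). The edgeR quasi-likelihood test on cells per class gave a log2 fold change of 0.13 (SE 0.21, adjusted p = 0.572 over 5 classes). Among cells with at least 1 UMI of the leukocyte gene Ptprc, B cells were 10.97% and 14.1% for the WT libraries and 14.2% and 14.9% for those of ERG CKO.

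**Figure D1:**
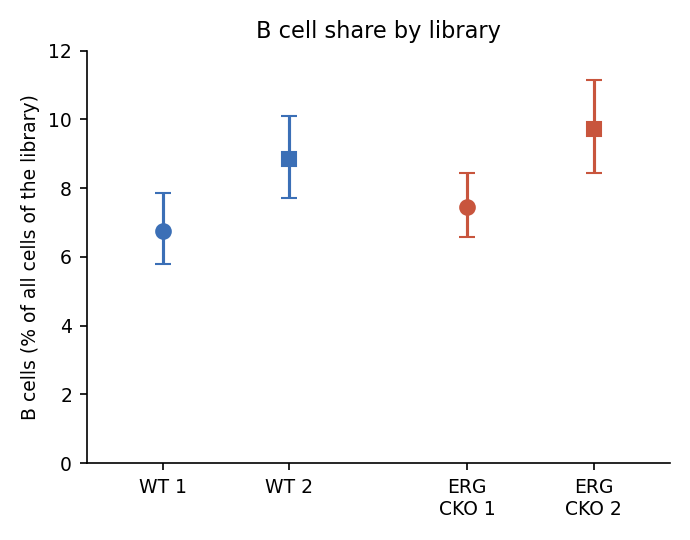
B cells as percent of all cells (y axis) in each of the 4 libraries (x axis), with 95% Wilson intervals as bars. The WT libraries lie at 6.76% and 8.84% and the ERG CKO libraries at 7.46% and 9.72%, so the groups overlap.

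Ighm, the heavy chain of IgM, was at 2914 and 2504 CPM in WT and at 2551 and 2795 CPM in ERG CKO, with overlapping groups (log2 fold change -0.01, SE 0.20, edgeR adjusted p = 0.997). Ighd, the IgD heavy chain, was at 710 and 765 CPM in WT and at 465 and 583 CPM in ERG CKO, lower in both ERG CKO libraries without passing the test (log2 fold change -0.49, SE 0.22, adjusted p = 0.587). Igha, the IgA heavy chain, and Jchain stood apart. Igha was at 14.5 and 0 CPM in WT and at 6088 and 5984 CPM in ERG CKO (log2 fold change 9.92, SE 0.52, adjusted p = 1.29e-09). Jchain had 0 UMIs in both WT libraries and 4558 and 1382 UMIs in ERG CKO, which was at least 1276-fold higher against a floor of 3 UMIs over the WT group (edgeR adjusted p = 1.29e-09). Igkc was at 9432 and 10223 CPM in WT and at 22164 and 24055 CPM in ERG CKO (log2 fold change 1.24, SE 0.19, adjusted p = 0.00391). In the tests, 33 of 6568 genes were called at an edgeR adjusted p of at most 0.05 (0.502%), 29 higher in ERG CKO (0.442%) and 4 lower, and 521 genes had an unadjusted p under 0.05.

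The Igha, Jchain and part of the Igkc UMIs were held by 4 cells, each with at least 20 Jchain UMIs, 3 in ERG CKO replicate 1, 1 in ERG CKO replicate 2 and 0 in WT. These cells held 99.9% and 99.7% of the Igha UMIs and 63.7% and 59.6% of the Igkc UMIs of B cells in ERG CKO replicates 1 and 2. They were deep, at 24165 to 33015 UMIs, and immunoglobulin transcripts, Jchain not counted, made up 54.2%, 9.99%, 39.8% and 63.1% of their UMIs. Each had Igha as its heavy chain, at 5302, 874, 2790 and 5238 UMIs, and 0 UMIs of Ighm and Ighd. All 4 also had UMIs of Xbp1, Mzb1, Derl3 and Tnfrsf17, genes of antibody-secreting cells, the last of which encodes the survival receptor BCMA, and 0 UMIs of the B cell identity factor Pax5. In ERG CKO replicate 1, the first cell had 26 UMIs of Ighv1-20 as its only heavy chain V gene and 6 UMIs of Igkv13-84, and the third had 39 UMIs of Ighv13-2 and 43 UMIs of Igkv8-28. The second was sparse, with 2 UMIs of Ighv1-55 and 6 of the lambda gene Iglv1. The cell of ERG CKO replicate 2 had 22 UMIs of Ighv5-9-1 and 38 of Igkv8-30. The top heavy chain V gene thus differed between all 4 cells, within the limits of V genes whose near copies could take some of their reads. A further cell of ERG CKO replicate 1, outside the rule with 5259 UMIs, had 363 Jchain UMIs with Ighm (487 UMIs) as its heavy chain.

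When the 4 cells were left out, Igkc was at 8572 and 10048 CPM in ERG CKO against 9432 and 10223 CPM in WT, and its log2 fold change was -0.11 (adjusted p = 0.954). Igha was then at 7.22 and 16.5 CPM in ERG CKO (log2 fold change 0.82, adjusted p = 0.909). Jchain was at 4.33 and 0 CPM and fell below the filter on low counts. Among the 153 and 190 B cells of WT, 0 had 20 Jchain UMIs, which allows a share of up to 1.96% and 1.58%, against 3 of 231 and 1 of 180 in ERG CKO, so absence from WT was not detectable at this number of cells. Igha UMIs were also found in cells outside the rule, in 5 and 3 cells of the WT libraries and in 96 and 25 cells of the ERG CKO libraries. In T cells, Jchain was found in 0 and 0% of cells in WT and in 0.671% and 1.54% in ERG CKO. Apart from the 4 cells, a class-switched heavy chain led in 1 and 2 cells in WT (Igha at 9 UMIs, and Ighg2b at 10 and 7 UMIs) and in 1 and 4 cells in ERG CKO (Ighg2b, Ighg2c or Igha at 2 to 34 UMIs).

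**Figure D2:**
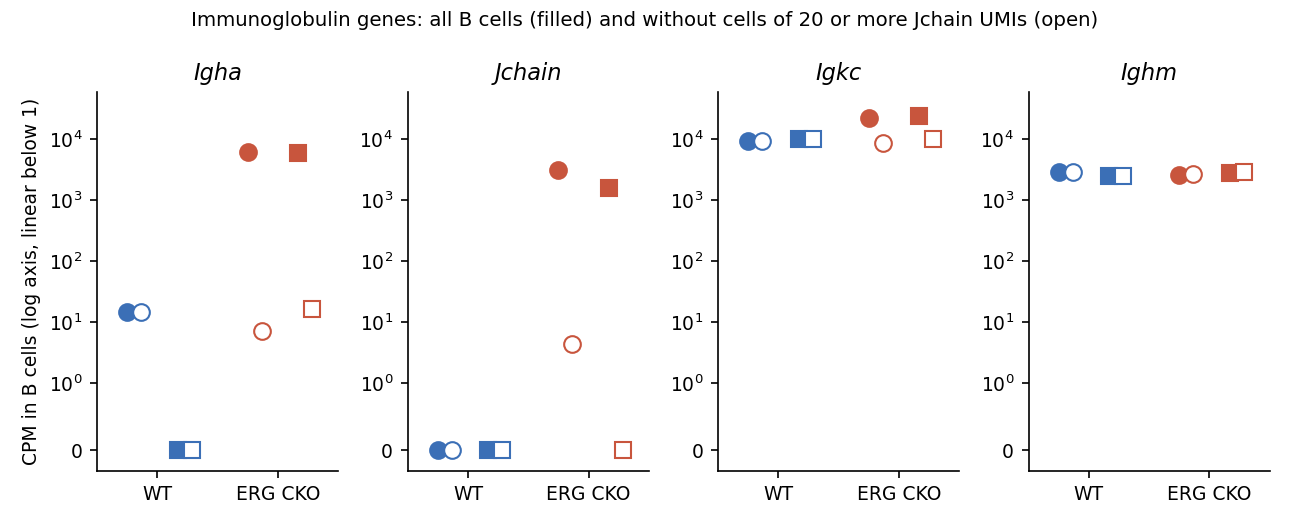
CPM of Igha, Jchain, Igkc and Ighm in B cells (y axis, log scale, linear below 1) in WT (blue) and ERG CKO (red) libraries, circles for replicate 1 and squares for replicate 2. Filled symbols show all B cells and open symbols leave out the 4 cells with at least 20 Jchain UMIs, after which Igkc is at 8572 and 10048 CPM in ERG CKO, and Ighm stays between 2504 and 2914 CPM.

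Light chain use was counted in cells with at least 10 UMIs of Igkc, Iglc1, Iglc2 and Iglc3. Cells were lambda where Iglc UMIs were at least 0.5 of that sum, kappa where they were at most 0.1, and mixed in between. Lambda cells were 3.401% and 6.88% of WT cells and 4.85% and 5.11% of ERG CKO cells, from 5, 13, 11 and 9 cells. The ERG CKO libraries lay between the WT libraries. Within lambda cells, Iglc1 had more UMIs than Iglc2 and Iglc3 together in 3 of 5 and 11 of 13 cells in WT and in 6 of 11 and 8 of 9 cells in ERG CKO. Kappa cells were 67.3% and 66.1% of WT cells and 78.4% and 61.9% of ERG CKO cells, and the rest were mixed, with a median of 33 to 42.5 Igkc UMIs beside 6 to 9.5 Iglc UMIs. Iglc1 itself was at 580 and 849 CPM in WT and at 376 and 383 CPM in ERG CKO, lower in both ERG CKO libraries without passing the test (log2 fold change -0.93, SE 0.24, edgeR adjusted p = 0.151). V genes were seen in a minority of B cells. Apart from the 4 IgA cells, a heavy chain V gene had a UMI in 17.6% and 15.8% of B cells in WT and in 20.2% and 15.6% in ERG CKO, from 22 to 34 different genes per library.

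Among called genes other than those of immunoglobulins, S100a6, Ahnak and Crip1 were higher in ERG CKO B cells. S100a6 (chr3:90612882-90624181), which encodes a calcium-binding protein, was at 12.9 and 29.0 CPM in WT and at 178 and 188 CPM in ERG CKO (log2 fold change 3.03, SE 0.27, edgeR adjusted p = 5.09e-06). The UMIs behind these values were 8, 26, 263 and 165, in 4.58%, 8.42%, 19.5% and 11.7% of B cells. In ERG CKO replicate 2, 1 cell held 84 of the 165 UMIs, and in replicate 1 the highest cell held 34 of 263. With the highest cell of each library left out, the log2 fold change of S100a6 was 2.80 (edgeR adjusted p = 0.000128). Ahnak (chr19:8989284-9076914), a very large scaffold protein under the plasma membrane, was at 61.4 and 66.9 CPM in WT and at 188 and 183 CPM in ERG CKO (log2 fold change 1.52, SE 0.20, adjusted p = 0.000592). The 2 replicates of each group were close, and the groups lay apart by more than the spread within them. Crip1 (chr12:113146316-113153879), a small LIM-domain protein, was at 420 and 435 CPM in WT and at 1198 and 1351 CPM in ERG CKO (log2 fold change 1.58, SE 0.22, adjusted p = 0.00111). These 3 genes were called in each of the 19 alternatives, with log2 fold changes of 2.57 to 3.90 for S100a6, 1.39 to 1.72 for Ahnak and 1.42 to 1.69 for Crip1. Without the cells over 20000 UMIs, S100a6 was at 188 and 181 CPM, Ahnak at 205 and 170 CPM and Crip1 at 1160 and 1177 CPM in ERG CKO.

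Further genes were called higher. Lgals1, which encodes galectin-1, was at 14.5 and 21.2 CPM in WT and at 158 and 72.9 CPM in ERG CKO (log2 fold change 2.69, SE 0.37, adjusted p = 0.00109). Vim, the intermediate filament vimentin, was at 508 and 473 CPM in WT and at 1294 and 951 CPM in ERG CKO (log2 fold change 1.21, SE 0.22, adjusted p = 0.0148). Without the 4 Jchain-rich cells, the log2 fold change of Vim was 1.11 (adjusted p = 0.0696) and that of Lgals1 was 2.17 (adjusted p = 0.00859). Anxa2, the membrane-binding annexin A2, was at 9.70 and 11.1 CPM in WT and at 69.9 and 37.6 CPM in ERG CKO (log2 fold change 2.39, SE 0.38). Lmna (lamin A and C) had a log2 fold change of 1.57, Myadm, a myelin-like membrane protein, of 1.497, the tetraspanin Cd9 of 1.68, and the hyaluronan receptor Cd44 of 1.31. In Myadm the replicates were close, with 29.1 and 31.2 CPM in WT and 85.5 and 86.6 CPM in ERG CKO. Kcnn4, a calcium-activated potassium channel, and Il9r, the receptor chain for interleukin 9, were at 3.34 to 11.3 CPM in WT and at 22.8 to 40.7 CPM in ERG CKO. Il9r came from many cells with few UMIs, since it was found in 3.27% and 1.58% of B cells in WT and in 17.7% and 9.44% in ERG CKO, with at most 5 UMIs in 1 cell. Vim, Anxa2, Lmna, Kcnn4, Cd44 and Il9r were not called without the 4 Jchain-rich cells, with edgeR adjusted p of 0.0515 (Il9r) to 0.199 (Kcnn4). The fold changes of Il9r (2.29), Lmna (1.58) and Cd44 (1.24) were then close to those with all cells, and those of Kcnn4 (1.63) and Anxa2 (1.79) were smaller. Tyrobp, a signalling adaptor of myeloid and natural killer cells, was at 16.2 and 23.4 CPM in WT and at 67.1 and 49.0 CPM in ERG CKO.

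**Figure D3:**
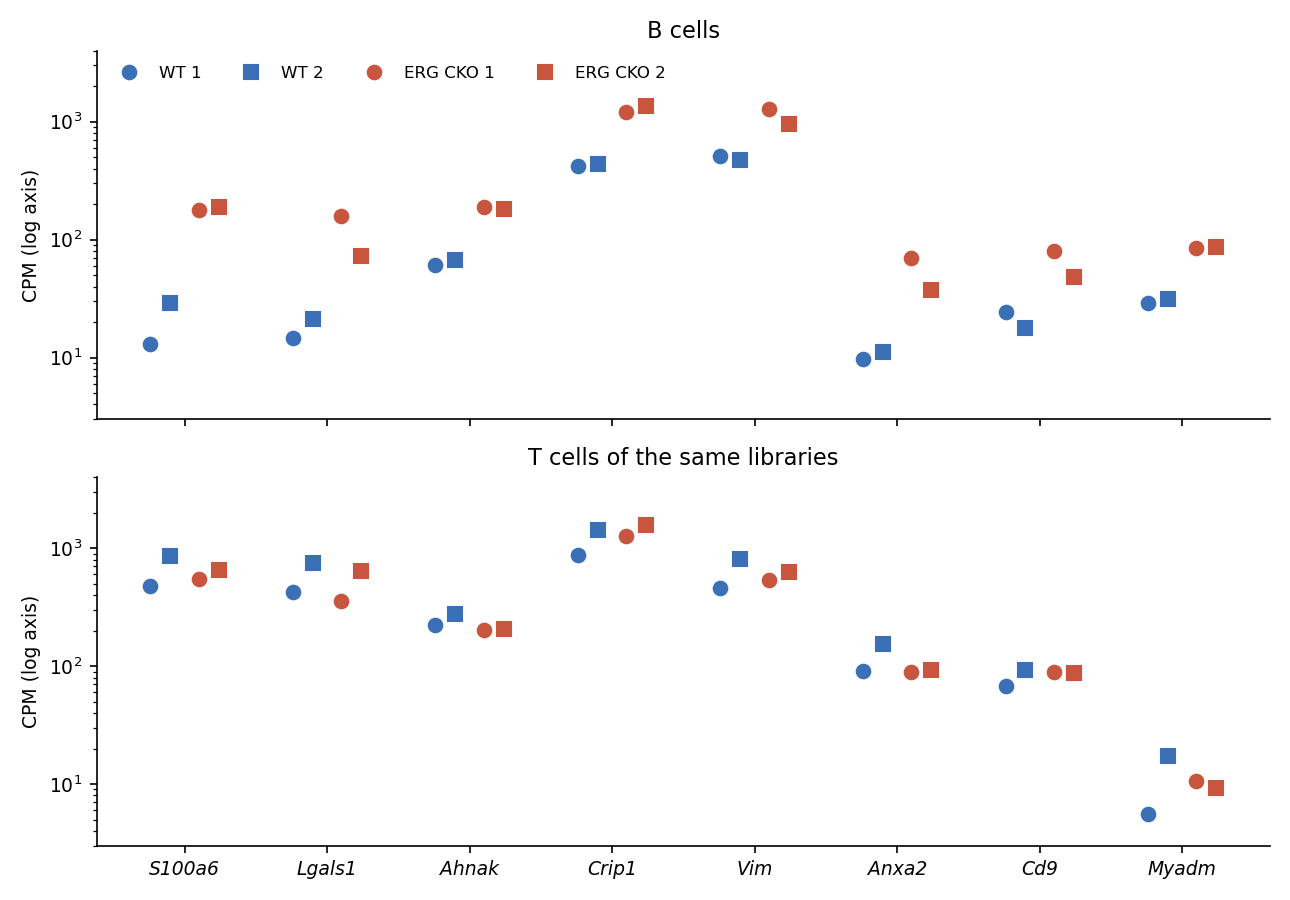
CPM (y axis, log scale) of 8 genes (x axis) in B cells (upper panel) and in T cells of the same libraries (lower panel), WT in blue and ERG CKO in red, circles for replicate 1 and squares for replicate 2. In B cells all 8 genes lie higher in both ERG CKO libraries, such as S100a6 at 178 and 188 CPM against 12.9 and 29.0 CPM, while in T cells S100a6 lies at 483 and 861 CPM in WT and at 548 and 653 CPM in ERG CKO.

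Genes of the cell cycle were called higher, and these values rested on single cells. Mki67, a marker of dividing cells, had 0 UMIs in both WT libraries and 71 and 11 UMIs in ERG CKO, at least 17.6-fold higher against the floor of 3 UMIs over the WT group (edgeR adjusted p = 0.00639). Of these UMIs, 47 of 71 and 11 of 11 were in 1 cell of each library. Ube2c, which drives exit from mitosis, had 60 of 62 and 17 of 17 UMIs in the same cells, and Top2a, Birc5, 2810417H13Rik and the histone genes Hist1h1b, Hist1h2ae and Hist1h2ap were also led by 1 cell in each ERG CKO library. The cell of ERG CKO replicate 1 had 90141 UMIs and 7334 detected genes, against 33015 UMIs in the next deepest B cell, with 353 UMIs of Ighm and 404 of Igkc. It was not called a doublet. The cell of ERG CKO replicate 2 had 9619 UMIs, 61 UMIs of Vpreb3, 20 of Ighm, 0 of Igkc and 0 of Ms4a1. Vpreb3 encodes a partner of the surrogate light chain of precursor B cells. The 2 cells thus differed in depth and in light chain. With at least 10 UMIs over Mki67, Top2a, Ube2c, Birc5, Cenpf and Cdk1, there were 3 cells in ERG CKO replicate 1, 1 in ERG CKO replicate 2 and 0 in WT. When the highest cell of each gene was left out, Top2a had a log2 fold change of -0.16 (adjusted p = 0.967), and Mki67, Ube2c and Birc5 fell below the filter on low counts.

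Of the remaining called genes, Tnfrsf17 (32 UMIs in ERG CKO, 0 in WT, at least 6.87-fold higher against the floor), Iglv1 and Pycard had most of their ERG CKO UMIs in few cells. In ERG CKO replicates 1 and 2, the 5 highest cells held 96.4% and 90.9% of the Iglv1 UMIs and 71.0% and 59.8% of the Pycard UMIs. Pycard, the inflammasome adaptor ASC, was at 56.6 and 43.5 CPM in WT and at 178 and 105 CPM in ERG CKO, at 87.3 and 56.5 CPM in ERG CKO without the 4 Jchain-rich cells, and at 62.5 and 56.5 CPM without all cells over 20000 UMIs. Cd300lf, an inhibitory receptor of myeloid cells, had 18 and 12 UMIs in 5 and 7 cells of ERG CKO and 0 UMIs in WT (at least 6.44-fold higher against the floor). Tmem176a was at 1.62 and 1.11 CPM in WT and at 27.1 and 14.8 CPM in ERG CKO, with 30 of 40 UMIs of ERG CKO replicate 1 in 1 cell. Lower genes were few. Birc2, the ubiquitin ligase cIAP1, was at 162 and 159 CPM in WT and at 84.8 and 87.7 CPM in ERG CKO (log2 fold change -0.90, SE 0.18, edgeR adjusted p = 0.0311). Arl5b, a small GTPase, was at 58.2 and 51.3 CPM in WT and at 25.1 and 19.4 CPM in ERG CKO. Without the 4 Jchain-rich cells, Birc2 was still called (adjusted p = 0.0355) and Arl5b was not (adjusted p = 0.0916), at a log2 fold change of -1.21 against -1.25 with all cells. Birc2 was not called without cells over 20000 UMIs (edgeR adjusted p = 0.0559), after thinning (edgeR adjusted p = 0.173) or with DESeq2 (adjusted p = 0.376). Its log2 fold changes there were -0.86, -0.89 and -0.90. The remaining lower genes are not B cell genes. Scgb1a1, the secretoglobin of airway club cells, was at 149 and 89.2 CPM in WT and at 53.6 and 13.7 CPM in ERG CKO, and without the Jchain-rich cells its log2 fold change was -1.62 against -1.64 with all cells (adjusted p = 0.0688). Hbb-bs, a beta globin, was led by 1 cell of WT replicate 2 with 4023 of 4042 UMIs, and its groups overlapped (3.23, 4506, 19.7 and 12.5 CPM).

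**Figure D4:**
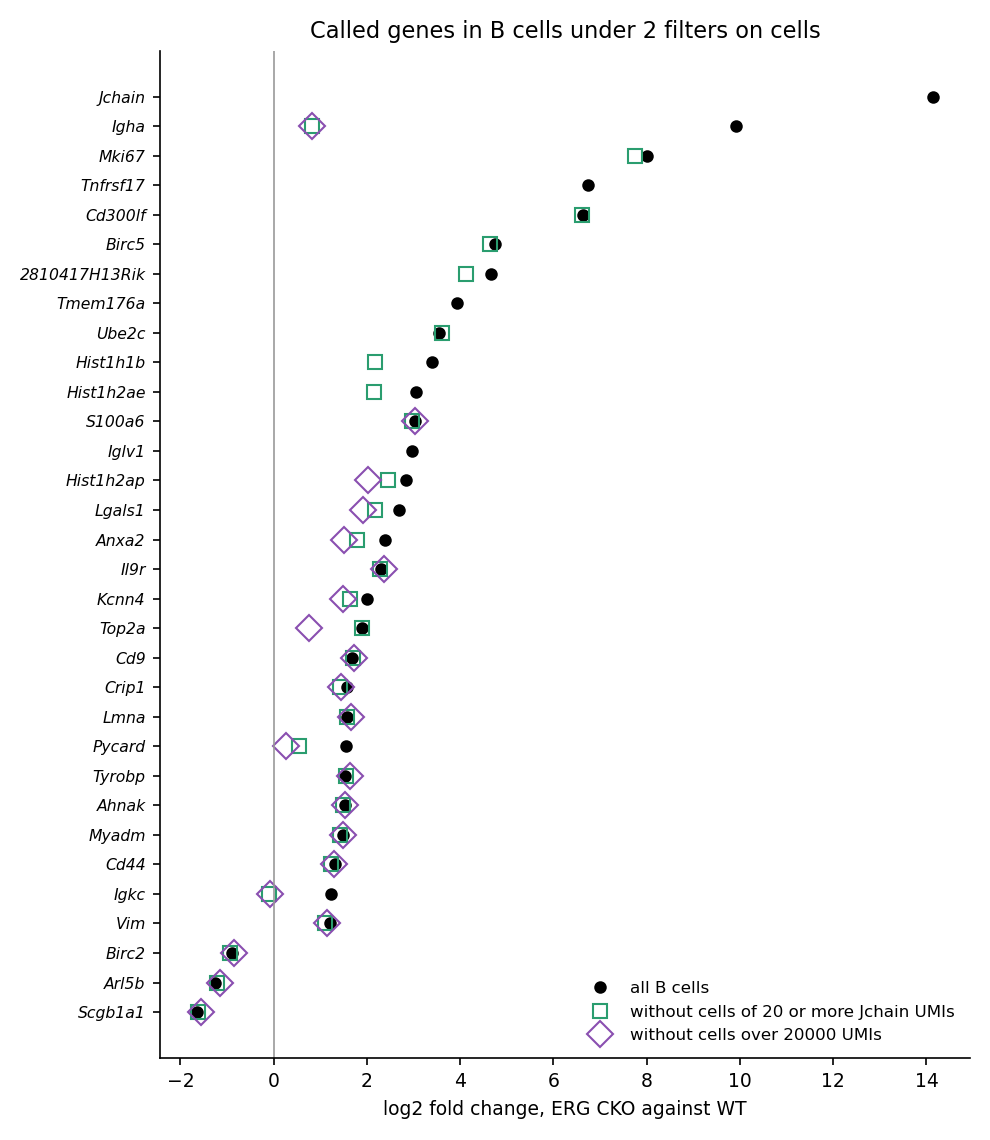
Log2 fold change of ERG CKO against WT in B cells (x axis) for 32 of the 33 called genes (y axis; Hbb-bs, at -7.15, is left out of the plot), with all B cells, without the 4 Jchain-rich cells and without cells over 20000 UMIs; a missing open symbol means that the gene fell below the filter on low counts. S100a6, Ahnak, Crip1 and Myadm hardly move, whereas Igkc goes from 1.24 to -0.11 and -0.07.

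Leaving out the 4 Jchain-rich cells gave 16 called genes, 15 of them among the 33. Leaving out the 5 cells over 20000 UMIs gave 9 called genes, 8 of them among the 33. The groups of 32 of the 33 called genes did not overlap, against 2355 of all 6568 genes (35.9%). S100a6, Ahnak and Crip1 were called in the same direction in all 19 alternatives. Jchain was called in the 14 alternatives in which it was tested. It could not be tested once the Jchain-rich cells, the cells over 20000 UMIs or the highest cells were left out, since they held nearly all its UMIs.

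Gene lists for B cell functions were then read as counts of called members beside those over all genes, whose median log2 fold change was 0.01 and of which 0.502% were called. At that share a short list would hold close to 0 called members, so a count of 0 is not a result about its members. On the side of antigen reception, 0 of 18 tested genes of activating B cell receptor signalling were called, with a median log2 fold change of -0.08. The most abundant were Bank1 at 516 and 503 CPM in WT and 495 and 581 CPM in ERG CKO, and the kinase Syk at 381 and 281 CPM in WT and 321 and 296 CPM in ERG CKO. Of the inhibitory receptors and phosphatases around it, 0 of 8 were called (median -0.02), among them Siglecg and the phosphatase Ptpn6. For transcription factors of the B lineage, 0 of 19 were called (median -0.15). Ebf1 was at 1966 and 1598 CPM in WT and at 1480 and 1668 CPM in ERG CKO, and Pax5 was at 312 and 216 CPM in WT and at 187 and 194 CPM in ERG CKO (log2 fold change -0.45, SE 0.19, edgeR adjusted p = 0.562).

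Antigen presentation genes were among the most abundant of these cells, and 0 of 12 were called (median -0.18). Cd74, the invariant chain of MHC class II, was at 16074 and 18540 CPM in WT and at 13436 and 17374 CPM in ERG CKO. H2-Aa, a class II alpha chain, was at 4314 and 5490 CPM in WT and at 3919 and 4872 CPM in ERG CKO. Of the receptors for BAFF, APRIL and CD40 ligand, 1 of 7 was called, Tnfrsf17. Tnfrsf13c, the BAFF receptor of mature B cells, was at 162 and 138 CPM in WT and at 85.5 and 115 CPM in ERG CKO (log2 fold change -0.59, SE 0.20, edgeR adjusted p = 0.400). Homing receptors had 1 of 15 called, Cd44. Of the 15, 4 lay higher and 4 lower in both ERG CKO libraries, against 1212 higher and 1143 lower of all 6568 genes. Among the lower ones were the chemokine receptors Ccr7 and Cxcr5, which guide B cells in lymphoid tissue, neither of them called. Gpr183 lay higher, at 98.6 and 126 CPM in WT and 164 and 188 CPM in ERG CKO (edgeR adjusted p = 0.360), as did Itgb1 and Itgb2. Ccr7 was at 800 and 806 CPM in WT and at 628 and 660 CPM in ERG CKO, and Cxcr5 at 149 and 183 CPM in WT and 136 and 130 CPM in ERG CKO. Of cytokine genes and their receptors, 1 of 11 was called, Il9r.

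For lists of B cell subsets, 0 of 7 follicular genes were called (median -0.31, Klf2 at 827 to 1364 CPM as the most abundant), 1 of 6 marginal zone genes (Cd9; median 0.20) and 3 of 6 tested B-1 genes, Ahnak, S100a6 and Anxa2 (median 1.95). The B-1 list was the one in which all 6 tested members lay higher in both ERG CKO libraries. Over all genes tested, 1212 of 6568 did so. The 3 not called were Zbtb32 (0 and 4.46 CPM in WT, 20.3 and 17.1 CPM in ERG CKO, adjusted p = 0.0912), Itgb1 and Bhlhe41. Cd5, the surface protein that names B-1a cells, had a UMI in 0, 0, 1 and 1 B cells and was not tested. Since the lists were chosen with results of these libraries known, the direction of the B-1 list is no independent evidence. Plasma cell genes had 2 of 8 called (Jchain and Tnfrsf17) and a median log2 fold change of 0.90, which was -0.01 without the 4 Jchain-rich cells. Germinal centre genes had 1 of 2 tested called (Mki67). No member was called among memory and age-associated genes (4 tested, Cd38 and Zeb2 the most abundant), immature genes (2 tested, Cd24a and Vpreb3) or Fc receptor-like and Ms4a genes (10 tested).

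Lists of cell responses were without called members as well. Of interferon-stimulated genes, 0 of 16 were called (median -0.21). Ifit3 was at 12.9 and 18.9 CPM in WT and at 1.36 and 3.42 CPM in ERG CKO (log2 fold change -2.87, SE 0.69, edgeR adjusted p = 0.0912). Ifi27l2a, the most abundant of them, was at 459 and 401 CPM in WT and at 503 and 340 CPM in ERG CKO. Among immediate early genes 0 of 17 were called (median -0.16), with Junb at 4445 and 4695 CPM in WT and at 2821 and 4936 CPM in ERG CKO. Heat shock genes had 0 of 10 called (median 0.14), NF-kB and survival genes 0 of 12 (median -0.12, Rel the most abundant), and Toll receptor genes 0 of 4 (median -0.05). Rel was at 908 and 914 CPM in WT and at 681 and 703 CPM in ERG CKO (log2 fold change -0.39, SE 0.21, adjusted p = 0.688).

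The B-1 list was also counted per cell. At least 3 of the 9 B-1 genes had a UMI in 0 of 153 and 6 of 190 B cells in WT and in 22 of 231 and 12 of 180 in ERG CKO (0%, 3.16%, 9.52% and 6.67%). Without large and Jchain-rich cells, the shares in ERG CKO were 8.37% and 6.15%. At a common depth of 2000 UMIs per cell, at least 2 of these genes had a UMI in 0.704% and 1.60% of cells in WT and in 10.7% and 8.82% in ERG CKO. Since S100a6, Ahnak and Anxa2 are members and were called higher, such shares follow in part from their levels, and they do not show that these genes came from the same cells. Cells with at least 2 UMIs of S100a6 were then compared with cells without S100a6 in each ERG CKO library, leaving out cells over 20000 UMIs and Jchain-rich cells. There were 20 and 9 such cells in ERG CKO and 1 and 6 in WT. This split was chosen after the values were seen, and it is given as a description. The S100a6 cells were deeper, with medians of 8897.5 and 7732 UMIs against 4892 and 4229 UMIs.

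Among 2364 genes compared, 13 were at least 2-fold higher in the S100a6 cells of both ERG CKO libraries (with 50 CPM added). Of these, 7 were among the genes called between the groups, S100a6 included, which is there by the split itself. Over all genes tested between the groups, 0.502% were called, and the share among the 2364 was not counted. The cells also come from the libraries in which these genes were higher, so this overlap is a description only. Lgals1 was at 267 and 481 CPM in S100a6 cells against 46.8 and 12.8 CPM in the others, Vim at 3538 and 3026 CPM against 918 and 533 CPM, and Ahnak at 454 and 658 CPM against 151 and 111 CPM. Crip1, Lmna and Myadm were the other called genes, and Tagln2 and Capg, which bind actin, were also higher. On the other side, 6 genes were at least 2-fold lower, among them receptors of mature follicular and marginal zone B cells. Fcer2a was at 40.3 and 25.3 CPM in S100a6 cells against 215 and 318 CPM, Cr2, the complement receptor CD21, at 25.2 and 25.3 CPM against 134 and 131 CPM, and Vpreb3 at 25.2 and 63.3 CPM against 195 and 325 CPM. The immunoglobulin classes differed too. Ighm was at 3548 and 4470 CPM in S100a6 cells against 2365 and 2806 CPM, and Ighd at 272 and 127 CPM against 588 and 670 CPM. Zbtb32, a transcription factor of the B-1 list, was found in 25% and 33.3% of S100a6 cells against 1.08% and 0.629% of the others. Bhlhe41 and Itgb1 of that list were also found in larger shares of the S100a6 cells in both libraries. Cd5, which names B-1a cells, was found in 0% and 11.1% of S100a6 cells. The S100a6 cells were not assigned to a subset. Nkg7, a gene of cytotoxic T and natural killer cells, had 0 CPM in the S100a6 cells of both libraries. Lyz2, a gene of myeloid cells, was found in 40% and 33.3% of S100a6 cells against 18.9% and 25.2% of the others, while its CPM was lower in the S100a6 cells (45.4 and 38.0 against 213 and 72.4); in ERG CKO replicate 1, 1 B cell held 141 of 222 Lyz2 UMIs.

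State markers were counted as shares of B cells with at least 1 UMI. With 2 mice per group, the smallest p of the exact permutation test is 0.333, and over the 26 shares tested the smallest adjusted p was 0.578, so no share could pass the test. Ahnak was found in 16.3% and 15.8% of B cells in WT and in 41.6% and 36.1% in ERG CKO. After thinning each cell to 2000 UMIs it was found in 8.45% and 8.02% in WT and in 22.3% and 21.8% in ERG CKO. Thinning left the ERG CKO libraries apart from WT. In T cells thinned to the same depth, Ahnak was found in 26.0% and 32.6% in WT and in 24.8% and 28.6% in ERG CKO. Cd9 was found in 3.52% and 4.28% of thinned B cells in WT and in 7.91% and 8.24% in ERG CKO. Ighd was found in 86.3% and 94.2% of B cells in WT and in 84.0% and 85.6% in ERG CKO, and in 67.6%, 76.5%, 60.5% and 66.5% after thinning. The difference in the Ighd share, ERG CKO minus WT, was -5.47 percentage points, and -8.57 after thinning. Both times it was smaller than the gap between the WT replicates and larger than that between the ERG CKO replicates. Fcer2a shares (52.3% and 58.9% in WT, 51.1% and 60.6% in ERG CKO) overlapped between the groups, as did those of the early activation marker Cd69 and of Isg15. Cr2 was at 27.5% and 30% in WT and at 38.5% and 34.4% in ERG CKO, and at 16.2%, 12.8%, 17.2% and 17.6% after thinning.

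**Figure D5:**
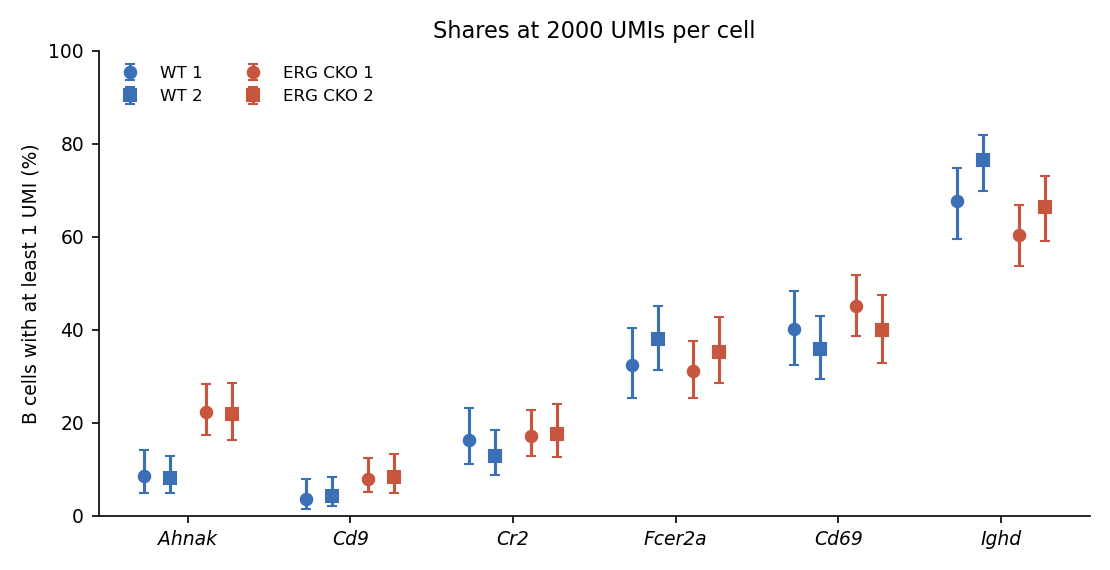
Percent of B cells with at least 1 UMI of 6 genes (y axis) after each cell was thinned to 2000 UMIs, by library, with 95% Wilson intervals as bars; WT in blue and ERG CKO in red. For Ahnak the ERG CKO libraries lie at 22.3% and 21.8% and the WT libraries at 8.45% and 8.02%, while Fcer2a and Cd69 overlap.

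B cells without any Ighd UMI (18, 11, 28 and 22 cells) were set against those with at least 3 (69, 120, 110 and 82 cells). Of 2427 genes, Ighd alone was at least 2-fold different in all 4 libraries, with 50 CPM added. IgD-negative cells at this depth were therefore not marked by a further gene of that size.

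To ask whether the differences were shared with another lymphocyte of the same mice, the change in B cells was tested against the change in T cells (1444 cells) in 1 edgeR model. In total, 58 of 8810 genes were called (0.658%), 47 with a higher and 11 with a lower change in B cells than in T cells, and 19 of them were also called in B cells alone. The change of S100a6 was higher in B cells by 3.21 (SE 0.27, adjusted p = 6.80e-07). T cells were at 483 and 861 CPM in WT and at 548 and 653 CPM in ERG CKO, with overlapping groups, and lay above B cells in all 4 libraries. For Ahnak the change was higher in B cells by 1.77 (SE 0.22, adjusted p = 0.000166), with T cells at 224 and 275 CPM in WT and at 204 and 206 CPM in ERG CKO. For Crip1 it was higher by 1.20 (SE 0.20, adjusted p = 0.00265), with T cells at 867 and 1419 CPM in WT and at 1266 and 1563 CPM in ERG CKO. Each of these 3 genes was called in all 9 alternatives of this test. Lgals1, Anxa2, Vim, Cd9, Cd44 and Kcnn4 were called as well. Birc2 had a lower change in B cells by -1.03 (SE 0.21, adjusted p = 0.0173), with T cells at 109 and 109 CPM in WT and at 112 and 120 CPM in ERG CKO.

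How B cells varied among themselves was described as variance over the Poisson variance at each cell's depth, within libraries. Its median over 5457 genes was 1.10, and 227 genes were over 2. Igkc ranked first at a mean of 593, which came from the ERG CKO libraries (1137 and 1206, against 11.1 and 18.1 for WT). Without large and Jchain-rich cells, Igkc was at 14.9 and ranked below Iglc1, Malat1 and Iglc2. With all cells, Iglc1 came next at 35.2, and then Malat1, a nuclear RNA, at 26.2. The mitochondrial gene mt-Atp6 was at 16.0, Iglc2 at 15.5 and the mitochondrial gene mt-Co3 at 13.9. Mitochondrial genes varied together, with Pearson correlations across cells of 0.74 to 0.92 between mt-Atp6 and mt-Co3 in the 4 libraries; points are cells of 1 library and share its depth. Among genes of B cells, Vim was at 9.88, Cd74 at 8.29, Crip1 at 7.88, Ighm at 7.45 and Vpreb3 at 7.07. Cd74 and H2-Ab1 varied together, with correlations of 0.54 to 0.65. The values of Chil3 and Lyz2, genes of macrophages, were 44.2 and 32.4 in ERG CKO replicate 1 and at most 1.82 elsewhere, and 1 cell of that library held 157 of 186 Chil3 UMIs.

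RNA of other cell types in the B cells was summed over marker lists. Myeloid markers (9 genes) were at 116 and 78.0 CPM in WT and at 366 and 125 CPM in ERG CKO, with 0 to 3 members at 0. Platelet markers (5 genes) were at 1.62 and 4.46 CPM in WT and at 29.2 and 11.4 CPM in ERG CKO, and neutrophil markers (5 genes) at 8.08 and 12.3 CPM in WT and at 24.4 and 19.4 CPM in ERG CKO. These 3 lists were higher in both ERG CKO libraries, as were 1212 of all 6568 genes tested. In ERG CKO replicate 1, 1 B cell held 157 of 186 UMIs of Chil3, a member of the myeloid list. For Lyz2, a further member, the highest cell held 141 of 222 UMIs. Tyrobp, Cd300lf and Tmem176a, which are expressed in myeloid cells, were called higher. The part of these genes and lists in the results was not tested. Csf1r is at 0 by the rule. Epithelial markers (6 genes) were at 210 and 126 CPM in WT and at 111 and 59.3 CPM in ERG CKO, and Scgb1a1, a member of that list, was called lower. In T cells, Scgb1a1 was at 96.5 and 57.4 CPM in WT and at 60.7 and 24.9 CPM in ERG CKO. T cell markers (9 genes) were at 12.5 to 22.4 CPM and natural killer cell markers (6 genes) at 3.39 to 14.8 CPM, and both overlapped between the groups. Endothelial markers (8 genes) were at 149 and 140 CPM in WT and at 132 and 137 CPM in ERG CKO, where Cdh5 is at 0 by the rule, and lay slightly lower in both ERG CKO libraries. Dendritic markers (6 genes) were at 4.56 to 9.70 CPM, fibroblast markers (5 genes) at 5.70 to 53.3 CPM, mural markers (4 genes) at 0 to 1.62 CPM and basophil and mast cell markers (4 genes) at 0 to 0.678 CPM, all with overlapping groups. Erythroid markers (5 genes) were at 8850 CPM in WT replicate 2, from the 1 cell with globin UMIs, and at 18.2 to 44.8 CPM in the other libraries.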

How the data were processed

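Whole lungs of 4 mice were profiled by 10x droplet single-cell RNA sequencing. Per the labels and the study's methods, the authors aligned the reads to mm10 with Cell Ranger 3.1.0 and deposited raw UMI counts in 1 matrix of 20076 gene rows and 9363 cells, each with at least 500 UMIs and 300 genes and at most 49.2% mitochondrial UMIs. The study compared groups cell by cell. Here, counts of B cells were summed per mouse, and the libraries were grouped by their labels.

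From these deposited counts, CPM are UMIs scaled to a total of 1000000 over the summed cells. Sums were tested with edgeR 4.0.16 (R 4.3.3; quasi-likelihood test, TMM, filterByExpr, Benjamini-Hochberg over all genes tested, threshold 0.05 on the adjusted p), with DESeq2 1.42.0 as an alternative. The change in B cells was compared with that in T cells by an interaction term, with library and cell type in the model. Shares were tested with exact permutation tests, and intervals are 95% Wilson intervals that cover counting error only. Python 3.11.15 with scanpy 1.11.5 (Scrublet) was used for cells. Thinning drew 2000 UMIs per cell, which left 142 and 187 cells in WT and 215 and 170 in ERG CKO. The fits were tested on simulated data. T cells, endothelial cells and monocytes or macrophages were taken by marker rules of the same kind.

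Genes were named by a rule: markers, called members of lists (otherwise the most abundant members), immunoglobulin constant genes, and the called genes with the largest change whose groups did not overlap; other called genes, the antibody-secreting cells and the S100a6 cells were chosen after their values were seen. The B cell rule, gene lists and tests were chosen with earlier results of these data known. Alternatives were other limits of the rule, doublets or cells over 10% mitochondrial UMIs left out, each gene without its highest cell, thinning, no filter on low counts, other scalings, immunoglobulin genes left out, a replicate block, DESeq2 and each library left out; leaving out Jchain-rich cells or cells over 20000 UMIs was added after seeing the data. Sequences and positions came from GENCODE vM21 (GRCm38). Reads of near-identical immunoglobulin genes may have been lost or moved between copies, since Cell Ranger counts reads assigned to 1 gene.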

Additional observations from a re-analysis of the deposited data

Results flagged for a closer look

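The change between ERG CKO and WT differed between B cells and T cells, by the interaction term of the edgeR model, for 20 genes that are given here as log2 fold change in B cells minus that in T cells. Of the 10 with the largest higher change, 9 are genes of dividing cells: Cenpf (9.09), Mki67 (8.72), Hmmr (8.65), Plk1 (8.56), Cdk1 (8.35), Tpx2 (8.23), Cdca3 (8.20), Kif11 (7.58) and Birc5 (6.29). Except for 1 UMI of Birc5, WT B cells had 0 UMIs of these genes, so the fitted values depend on the prior count. Single B cells led them in ERG CKO, for example 31 UMIs of Cenpf in 1 cell of replicate 1 and 5 UMIs in 1 cell of replicate 2. Lpl (6.30), lipoprotein lipase, had 100 UMIs in 1 B cell of ERG CKO replicate 1, and was at 0, 2.23, 69.2 and 1.14 CPM in B cells.

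The 10 genes with the largest lower change in B cells were Wfdc21 (-6.05), S100a8 (-3.84), S100a9 (-3.21), H2-Eb1 (-2.69), Ifitm3 (-2.39), Mgp (-2.38), Hba-a1 (-1.91), H2-Aa (-1.85), Cd74 (-1.53) and Jun (-1.15). Several of these differences came with values of T cells. S100a8, a neutrophil gene, was at 46.4 and 77.0 CPM in T cells of WT and at 1083 and 1373 CPM in those of ERG CKO, against 4.56 to 8.82 CPM in B cells of all 4 libraries. H2-Eb1, an MHC class II chain, was at 3.74 and 3.19 CPM in T cells of WT and at 24.6 and 15.1 CPM in those of ERG CKO, against 3713 to 4502 CPM in B cells. Jun was at 134 and 212 CPM in B cells of WT and at 119 and 154 CPM in those of ERG CKO, while T cells were at 111 and 118 CPM and at 190 and 192 CPM.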

How the results depend on the processing

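S100a6, Ahnak and Crip1 were called under each of the 19 alternatives for B cells, and 30 of the 33 called genes kept their direction in every alternative in which they were tested. Over all called genes, 449 of 572 values stayed called in the same direction, 117 were no longer called and 6 reversed. Against 33 genes called, 16 were called without Jchain-rich cells, 9 without cells over 20000 UMIs, 15 without the highest cell of each gene, 9 after thinning, 12 with DESeq2 and 120 with no filter on low counts. Leaving out 1 library gave 27 (without WT replicate 2) to 142 (without ERG CKO replicate 2) called genes; the lone library is then assumed to vary like the other group. The B against T comparison, with 58 called, gave 116 with no filter, 12 with DESeq2, 104 at no more than 10% mitochondrial UMIs, and 18 (without WT replicate 2) to 174 (without ERG CKO replicate 2) with 1 library left out. Reversed log2 fold changes were those of Top2a without its highest cells (-0.16), Igkc without cells over 20000 UMIs (-0.068) or Jchain-rich cells (-0.11, and -0.10 with the replicate block), and Hbb-bs without its highest cells (0.23) or WT replicate 2 (2.41, the highest of -8.15 to 2.41 with 1 library left out). Why the remaining counts moved was not tested.

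With the replicate number as a block, 71 genes were called (54 higher, 17 lower; 49 without Jchain-rich cells). The labels give numbers but no shared litter or day, and with 2 pairs the deviations of equal numbers correlated at 0.134 across 2352 genes, and at -0.0189 without sex-linked genes, so the numbers were not taken as a pairing. Xist was found in both replicates 1 and Ddx3y in both replicates 2, so the block also separates the libraries by sex-linked genes.

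The difference in the B cell share ranged from -0.339 (without ERG CKO replicate 2) to 1.92 percentage points with 1 library left out, and was -0.248 without WT replicate 1. Counted over each state share under each alternative, 129 differences kept their direction and 9 reversed. The lambda share difference ranged from -1.90 to 1.58 points with 1 library left out. That of Fcer2a was -0.299 with a looser rule, -1.95 after thinning and -4.54 to 4.94 with 1 library left out, -3.13 among these. That of Isg15 was 0.202 with a stricter rule, 0.0229 without Jchain-rich cells, and -2.21 to 2.13 with 1 library left out, 0.175 among these. With 153 to 231 B cells per library, a state absent from WT could still hold up to 1.96% of them.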
